A study of Mus musculus with 6 samples.

Results

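Sub-cluster 13 is a group of adult astroglial cells in single-cell RNA sequencing libraries of the mouse striatum. Its members were the cells to which the deposited cell table gives the number 13 in the re-clustering of the astroglial cells, and there were 202 of them among 14373 annotated cells and among 1118 astroglial cells of the 3-month libraries. All 202 came from 3-month (3m) animals, with 3 cells in replicate 1, 168 in replicate 2 and 31 in replicate 3. The study compared striatal cells of C57BL/6 mice at postnatal day 3 (P3) and at 3m, with 3 preparations per age, no treatment and no transgene. Each preparation pooled several animals, and the cells were enriched with magnetic beads for ACSA2, the astrocyte surface antigen that is carried by the protein product of Atp1b2, so that the libraries do not sample the tissue evenly. The subventricular zone, which holds neural stem cells, was dissected away.

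Astrocytes clear glutamate, GABA and glycine from the space around synapses, buffer potassium, and release matrix proteins that act on synapses. Astrocytes of different brain regions express different sets of these genes. Telencephalic astrocytes, among them those of the striatum and cortex, carry transcription factors such as Lhx2 from their progenitors, while angiotensinogen and the transporters of GABA and glycine are known to be higher in astrocytes of the diencephalon, brainstem and spinal cord.

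The 3m libraries held 1308 to 1769 barcodes and 5471573 to 10522151 unique molecular identifiers (UMIs, counts of captured RNA molecules). The 202 cells carried 22974 UMIs in replicate 1, 679697 in replicate 2 and 195237 in replicate 3. Their median UMI number per cell was 3458 in replicate 2 and 3977 in replicate 3, against 2842 and 3704 in the other 3m astroglial cells of the same libraries. The median share of mitochondrial UMIs was 6.97% and 8.12%, against 5.62% and 5.87% in the other cells. Of the 16690 barcodes, 37 sequences occurred in more than 1 library, and 2 of them belonged to cells of sub-cluster 13. Scrublet, which marks barcodes that look like 2 cells, marked 1 of the 202 cells.

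Sub-cluster 13 made up 1.41% of the astroglial cells in 3m replicate 1 (3 of 213, exact 95% binomial interval 0.291 to 4.06%), 30.8% in replicate 2 (168 of 546, 26.9 to 34.8%) and 8.64% in replicate 3 (31 of 359, 5.94 to 12%). The mean of these shares was 13.6% ± 15.3 (SD, n = 3), and the intervals, which cover counting error only, did not overlap between any pair of libraries. None of 8874 P3 astroglial cells carried the number 13, and a count of 0 allows up to 0.0338%. The borders between sub-clusters rest on genes that differ with age, so the age difference in the share was not tested. The other main adult sub-clusters were also uneven: sub-cluster 7 held 14, 283 and 307 cells in replicates 1 to 3, and sub-cluster 14 held 182, 0 and 2. Before the re-clustering, 191 of the 202 cells had been placed in the adult astrocyte cluster numbered 14 in the table and 11 in the one numbered 5. Only 4 of the 202 had a deposited pseudotime.

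The limit on mitochondrial UMIs removed barcodes that held leading genes of sub-cluster 13, the largest number of them in replicate 1. The annotated cells were exactly those with over 500 genes and under 10% mitochondrial UMIs, and this limit removed 729 otherwise passing barcodes in 3m replicate 1, 264 in replicate 2 and 205 in replicate 3. Brought to an equal depth of 2000 UMIs, 108 of 620 such barcodes in replicate 1 held a UMI of at least 3 of the 15 leading genes of sub-cluster 13 described below. The same was true of 79 of 124 in replicate 2 and 37 of 99 in replicate 3. Of these barcodes, 105, 79 and 36 also held at least 3 of 5 general astrocyte genes (Aldoc, Slc1a2, Slc1a3, Gja1 and Aqp4), and 63, 52 and 21 held none of the 15 leading lower genes. Among kept cells of replicates 2 and 3 at that depth, at least 3 leading genes were found in 69.4% and 83.3% of sub-cluster 13, in 1.36% and 1.86% of sub-clusters 7 and 14, and in 2.81% and 1.17% of oligodendrocytes. In sub-cluster 16 they were found in 11 of 33 cells and in 1 of 5 cells, so this count does not mark sub-cluster 13 alone. Whether these barcodes are cells of the kind in sub-cluster 13 was not tested. They have no sub-cluster in the table and enter no share, ratio or age fit of sub-cluster 13.

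**Figure D1:**
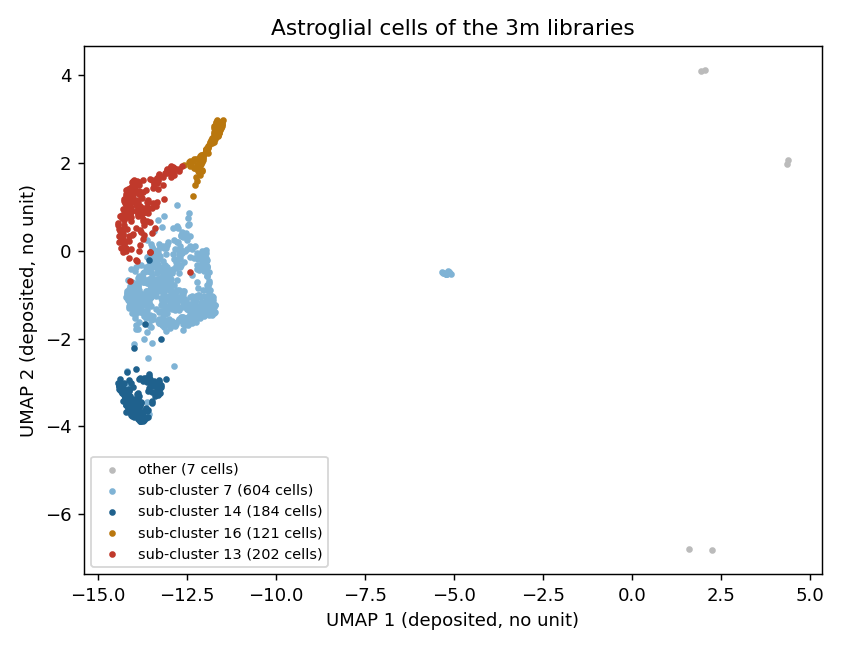
The deposited UMAP map of the 1118 astroglial cells of the 3m libraries (both axes without unit), each point a cell coloured by its sub-cluster. The 202 cells of sub-cluster 13 lie at one edge of the 604 cells of sub-cluster 7 and next to the 121 cells of sub-cluster 16, while the 184 cells of sub-cluster 14 lie apart.

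The cells carried astroglial markers. The study picked the clusters for re-clustering by Sox9 and other astrocyte markers, so these levels were part of the selection and are a description. Sox9, a transcription factor of astroglia, stood at 518 and 456 CPM (its UMIs scaled to an equal total for every library and group) in sub-cluster 13 in replicates 2 and 3 and at 491 and 424 CPM in the other 3m astroglial cells. These levels did not differ between the groups by more than the libraries differed from each other. The summed level of 6 astrocyte markers (Sparc, Sox9, Aldh1l1, Aqp4, Gja1 and Slc1a3) was 8430 and 6536 CPM in sub-cluster 13, 5657 and 5138 CPM in the other astroglial cells, and 389 and 249 CPM in oligodendrocytes. Sparc, a secreted matricellular protein, had the largest ratio of the 6 (mean log2 ratio 2.41) and does not mark sub-cluster 13 alone: pooled over libraries it stood at 2116 CPM in sub-cluster 13 and 2095 CPM in sub-cluster 16, against 197 CPM in sub-cluster 7.

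Oligodendrocyte markers stood above their level in the main adult sub-clusters. The summed level of 9 oligodendrocyte markers was 1799 and 1183 CPM in sub-cluster 13, 517 and 427 CPM in sub-clusters 7 and 14, and 45577 and 41182 CPM in oligodendrocytes. In all other 3m astroglial cells, which include sub-cluster 16 (12698 and 15446 CPM), it was 2358 and 819 CPM, so that sub-cluster 13 was lower in replicate 2 and higher in replicate 3 against this group. None of the 9 was at 0. At 2000 UMIs per cell, Mbp, a myelin protein, had a UMI in 41.5% and 43.3% of cells of sub-cluster 13, in 16.4% and 16.7% of sub-clusters 7 and 14 and in 100% of oligodendrocytes. The part of this RNA in the results below was not tested. Oligodendrocyte precursor markers summed to 8.83 and 25.6 CPM against 11.2 and 14.1 CPM in the other astroglial cells (Pdgfra and Gpr17 at 0), and microglial markers to 83.9 and 30.7 CPM against 149 and 71.2 CPM (P2ry12 at 0). Endothelial markers summed to 1.47 and 0 CPM (4 of 5 at 0), mural markers to 45.6 and 56.3 CPM against 76.4 and 75.2 CPM (4 of 6 at 0), and fibroblast markers to 14.7 and 20.5 CPM (3 of 4 at 0). Neuronal markers summed to 121 and 215 CPM against 137 and 117 CPM, and ependymal markers to 115 and 118 CPM against 133 and 118 CPM. Tanycyte markers were lower, at 227 and 579 CPM against 2483 and 1426 CPM, nearly all of it Crym (Rax, Scn7a and Adm at 0). Bergmann glia markers summed to 541 and 615 CPM against 697 and 730 CPM. Markers of stem or cycling cells summed to 127 and 102 CPM against 71.3 and 42.3 CPM, with Mki67, Top2a and Dcx at 0.

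The question put to the expression values was which genes set sub-cluster 13 apart from the other 3m astroglial cells of the same library. UMIs were summed over the cells of each group in each library and scaled to CPM, and the log2 ratio of (CPM + 1) was taken within replicates 2 and 3, the libraries with at least 10 cells of the sub-cluster. Among 3097 genes with at least 50 CPM in the higher group, 176 (5.68%) were at least 2-fold higher in sub-cluster 13 in the mean of both libraries with the same sign in each, and 117 (3.78%) were at least 2-fold lower. The median ratio of all 3097 genes was -0.02 on the log2 scale. The clustering that made the sub-cluster used the same cells and genes, so these counts are a description and carry no test. With TMM factors as scaling, the median moved to -0.18 and the split to 131 higher and 177 lower genes, and with RLE factors to -0.12 and to 145 and 151. No named gene past 2-fold turned sign under either, but Atp1b2 and Nfix were among those that came under 2-fold with TMM (log2 ratios of 0.88 and 0.90) and Clu, Pax6, Gpc6, Glrb, Hes5 and Sqle passed it as lower.

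Of the 176 higher genes, 156 were also higher in the 3 cells of replicate 1 than in the other astroglial cells of that library, and 110 of the 117 lower genes were lower there. The clustering that placed these 3 cells used their expression, so both counts are a description and not a replication. The 3 cells held 22974 UMIs, and lower genes such as Lhx2 and Crym were at 0 in them, which so few UMIs can give. The shares over all 3097 genes are not given.

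**Figure D2:**
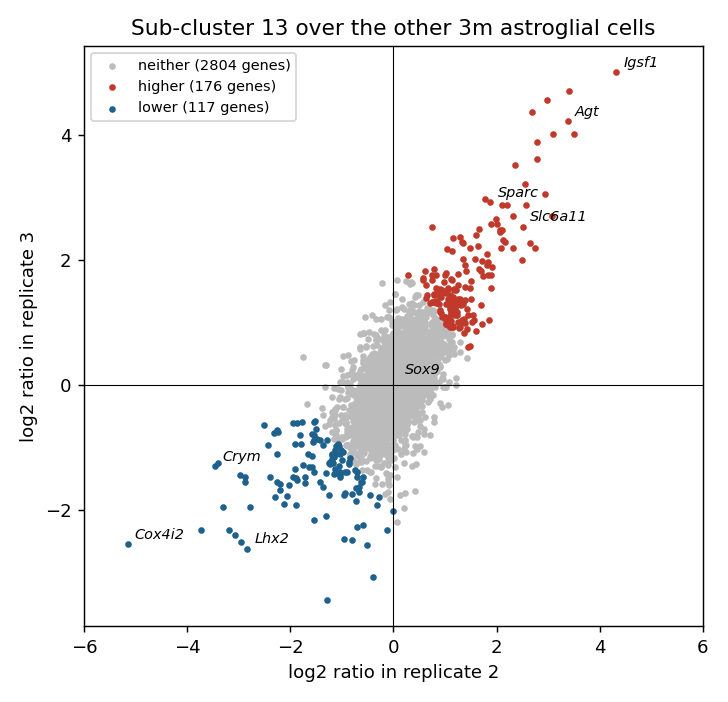
The log2 ratio of (CPM + 1), sub-cluster 13 over the other 3m astroglial cells, in replicate 2 (horizontal axis) and replicate 3 (vertical axis) for 3097 genes. The 176 higher genes (red) and 117 lower genes (blue) lie along the diagonal at its ends, and Sox9 lies near the origin.

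Among the higher genes, Agt (angiotensinogen, the precursor of the angiotensin peptides; GRCm38 chromosome 8, 124556534 to 124569706, minus strand) stood at 1133 CPM in sub-cluster 13 in replicate 2 and 901 CPM in replicate 3. In the other 3m astroglial cells it stood at 108 and 47.0 CPM. The ratio was 10.5-fold in replicate 2 (exact 95% interval 8.66 to 12.7, counting error only) and 19.2-fold in replicate 3 (14.2 to 26.2), and the mean log2 ratio was 3.80 ± 0.43 (each library's distance from the mean, n = 2). At 2000 UMIs per cell, Agt had a UMI in 79.6% and 80.0% of the cells of sub-cluster 13, in 15.9% and 8.18% of sub-clusters 7 and 14, and in 1.83% and 0.391% of oligodendrocytes, which are not known to express it. Without thinning the shares in sub-cluster 13 were 90.5% and 100%.

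Igsf1 (an immunoglobulin superfamily membrane protein; GRCm38 chromosome X, 49782536 to 49797749, minus strand) had the largest mean log2 ratio, 4.67 ± 0.35. It stood at 122 and 82.0 CPM in sub-cluster 13 and at 5.15 and 1.57 CPM in the other cells. The level in the other cells of replicate 3 rested on 2 UMIs, and the ratio there was 52.3-fold with an interval of 12.3 to 469. Itih3, a heavy chain of the inter-alpha-trypsin inhibitors that bind hyaluronan, stood at 561 and 574 CPM against 80.7 and 45.4 CPM.

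Transporters that clear GABA and glycine were higher. Slc6a11, a GABA transporter, stood at 1630 and 1270 CPM in sub-cluster 13 and at 286 and 217 CPM in the other cells, a ratio of 5.70-fold (5.04 to 6.46) in replicate 2 and 5.86-fold (4.91 to 6.98) in replicate 3. Slc6a9, a glycine transporter, stood at 218 and 261 CPM against 27.5 and 30.5 CPM. The further leading higher genes were Car14 (a membrane-bound carbonic anhydrase), Rnase1 (a secreted ribonuclease), Kcnd2 (a voltage-gated potassium channel), Pipox (pipecolic acid oxidase), Sfrp5 (a secreted Wnt antagonist), Ntrk3 (the neurotrophin-3 receptor), Ucp2 (a mitochondrial carrier), B3galt2 (a galactosyltransferase), Lrig1 (a transmembrane regulator of growth factor receptors), Gria1 (an AMPA receptor subunit) and Adora1 (an adenosine receptor). Their mean log2 ratios ran from 4.06 for Car14 down to 2.55 for Adora1. Car14 was also found in oligodendrocytes, as were Adora1, Slc6a9 and Itih3. At 2000 UMIs per cell Car14 had a UMI in 12.9% and 30.0% of cells of sub-cluster 13, in 0.455% and 1.12% of sub-clusters 7 and 14, and in 32.9% and 35.4% of oligodendrocytes. Adora1 had a UMI in 6.80% and 23.3% of cells of sub-cluster 13 and in 8.16% and 7.81% of oligodendrocytes. Slc6a9 was found in 18.4% and 17.6% of oligodendrocytes and Itih3 in 12.4% and 8.79%, below their shares in sub-cluster 13. With cells of over 1000 genes and under 5% mitochondrial UMIs, which left replicate 2 alone with 42 cells, the log2 ratio of Car14 was 0.73, under 2-fold. The ratio for Kcnd2 in replicate 3 rested on 1 UMI in the other cells (52.3-fold, 7.02 to 2322).

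Among the lower genes, Lhx2 (a LIM homeodomain transcription factor of the telencephalon; GRCm38 chromosome 2, 38339281 to 38369733, plus strand) stood at 30.9 and 35.9 CPM in sub-cluster 13 and at 227 and 225 CPM in the other astroglial cells. It was 7.34-fold lower in replicate 2 (4.70 to 12.1), and the mean log2 ratio was -2.73 ± 0.11. At equal depth it had a UMI in 5.44% and 6.67% of the cells of sub-cluster 13, in 35.5% and 37.9% of sub-clusters 7 and 14, and in 0.844% and 1.37% of oligodendrocytes. Crym, a thyroid hormone binding protein, stood at 224 and 579 CPM against 2475 and 1416 CPM. Its ratio differed between the libraries, at 11.1-fold lower in replicate 2 (9.40 to 13.1) and 2.45-fold lower in replicate 3.

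Atp1b1, a beta subunit of the sodium pump, stood at 70.6 and 118 CPM in sub-cluster 13 and at 557 and 677 CPM in the other cells. Atp1b2, the beta subunit that carries the antigen used for the sort, went the other way, at 2042 and 2039 CPM against 992 and 1013 CPM. Its mean log2 ratio of 1.02 lay just past the 2-fold limit, and the sort selects on this protein. Cox4i2, an isoform of a cytochrome c oxidase subunit, had the lowest mean log2 ratio, -3.85 ± 1.31, but rested on 1 and 3 UMIs in sub-cluster 13. The remaining leading lower genes were Nupr1, Adam23, Gfra1 (a GDNF receptor), Gdf10 (a BMP family ligand), Kirrel2, Gt(ROSA)26Sor, Ankrd29, Ppp1r3g (a glycogen-targeting phosphatase subunit), Efemp1, Igfbp2 and Oaf. Their mean log2 ratios ran from -3.03 for Nupr1 to -2.03 for Oaf. Gt(ROSA)26Sor is annotated as antisense, and its reads may not be separable from those of its overlapping neighbour.

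**Figure D3:**
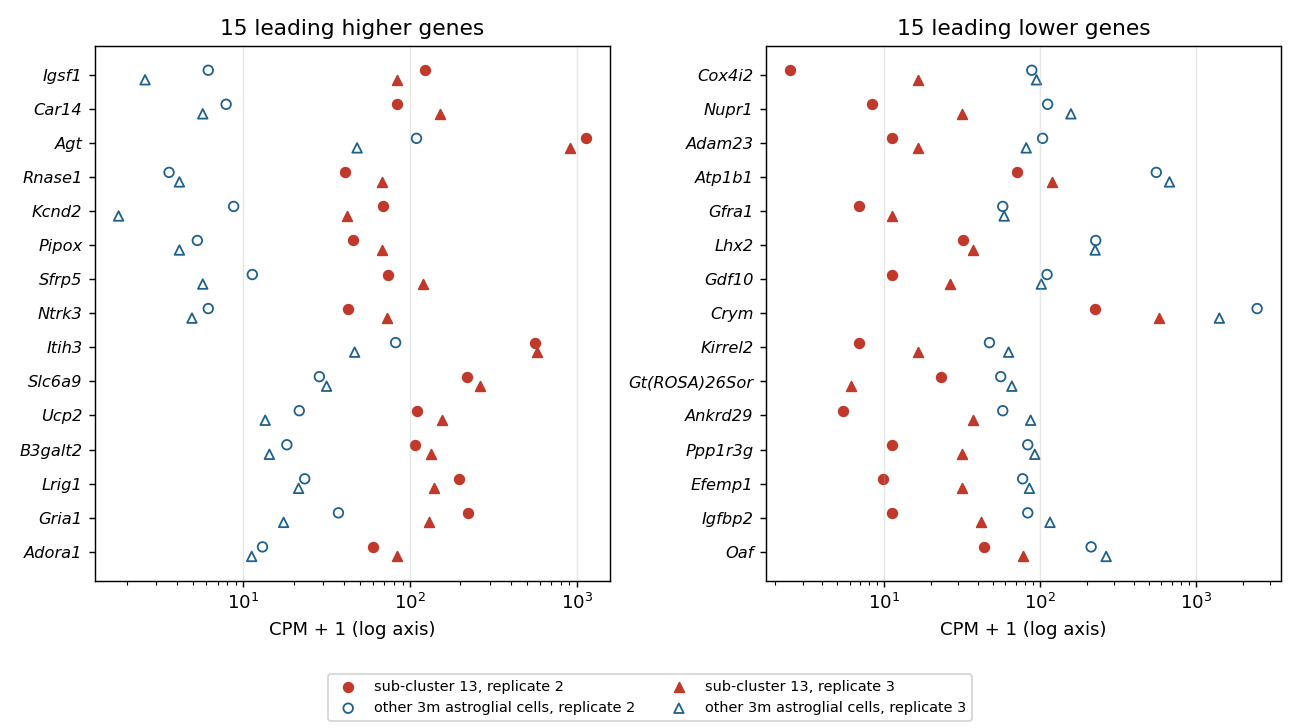
Level (CPM + 1, log axis) of the 15 leading higher genes and the 15 leading lower genes in sub-cluster 13 (red, filled) and the other 3m astroglial cells (blue, open) in replicates 2 (circles) and 3 (triangles). The groups do not overlap for any of the 30 genes, as their choice requires; Agt stands at 1133 and 901 CPM in sub-cluster 13.

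The leading genes were spread over the cells. At 2000 UMIs per cell, the median cell of sub-cluster 13 held a UMI of 4 of the 15 leading higher genes in replicate 2 and of 5 in replicate 3, and 6 of 147 and 1 of 30 cells held none. In sub-clusters 7 and 14 the median was 0, and 147 of 220 and 192 of 269 cells held none. Of the cells of sub-cluster 13, 55.8% and 43.3% held no UMI of the 15 leading lower genes, against 0.909% and 0.372% in sub-clusters 7 and 14. This does not mark sub-cluster 13 alone. In sub-cluster 16, 51.5% of 33 cells in replicate 2 and 1 of 5 cells in replicate 3 held none of them. Among oligodendrocytes 76.1% and 79.3% held none. The leading genes were chosen for their levels in these same cells, so these shares are a description. The thinning left out 21 cells of sub-cluster 13 in replicate 2 and 1 in replicate 3 that had fewer UMIs.

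Of 14 pan-astrocyte markers, 1 (Atp1b2) was 2-fold higher, none was 2-fold lower, and the median log2 ratio was 0.22, with a range of -0.93 to 1.02. Clu (clusterin, a secreted chaperone) was at the low end, at 5273 and 5311 CPM against 9777 and 10397 CPM, and Ndrg2 stood at 2788 and 2213 CPM against 1579 and 1249 CPM. Of 11 genes that mark mature astrocytes, among them Glul, Aqp4 and Slc1a2, none passed 2-fold in either direction and the median was 0.02. Slc1a2, the main glutamate transporter, stood at 4656 and 5306 CPM in sub-cluster 13 and 5016 and 4766 CPM in the other cells, and the groups overlapped. Of 10 genes of immature astrocytes considered, Olig1, Egfr and Nfix were higher and none was lower. Olig1, a transcription factor of the oligodendrocyte lineage and of some astrocytes, stood at 196 and 184 CPM against 49.0 and 28.2 CPM. At equal depth it had a UMI in 30.6% and 23.3% of cells of sub-cluster 13. The shares were 3.64% and 4.09% in sub-clusters 7 and 14 and 76.5% and 71.7% in oligodendrocytes. In sub-cluster 16, 36.4% of 33 cells in replicate 2 and 2 of 5 cells in replicate 3 held it. Olig1 thus does not mark sub-cluster 13 alone, and the part of oligodendrocyte RNA in its level was not tested.

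Regional genes differed in part. Of 6 genes considered from a telencephalic list, Lhx2, Emx2 and Nr2e1 were lower. The other 3, among them Six3 and Mfge8 (which is not a transcription factor gene), were not past 2-fold. Of 32 patterning genes of other brain regions, 28 were under 50 CPM in both groups, and the highest of these had a mean of 7.71 CPM in sub-cluster 13. Nkx2-2 (44.1 and 56.3 CPM against 10.3 and 8.61 CPM) and Nkx6-2 (280 and 108 CPM against 77.3 and 26.6 CPM), homeodomain factors of the ventral neural tube and of oligodendrocytes, were higher. Tcf7l2 and Pax6 were not past 2-fold. Of 8 astrocyte genes known to be higher outside the telencephalon or in fibrous astrocytes, 6 were higher (Agt, Slc6a11, Slc6a9, Gfap, Sparc and Itih3), Gdf10 was lower and Slc7a10 was not past 2-fold. This list was drawn up with earlier results of these data known.

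Potassium and bicarbonate handling genes were among the higher ones. Of 15 ion, water and gap junction genes considered, Kcnj10, Kcnj16, Slc4a4 and Atp1b2 were higher and Kcnk1, Kcnn2 and Atp1b1 lower. Kcnj10, the main inward rectifier potassium channel of astrocytes, stood at 396 and 379 CPM against 126 and 79.9 CPM. At equal depth Kcnj10 had a UMI in 42.2% and 36.7% of cells of sub-cluster 13. The shares were 11.8% and 12.3% in sub-clusters 7 and 14 and 27.7% and 27.1% in oligodendrocytes. Slc4a4, a sodium bicarbonate cotransporter, stood at 1999 and 1910 CPM against 704 and 601 CPM. Kcnk1, a leak channel, stood at 215 and 359 CPM against 729 and 867 CPM.

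Of 13 genes of transmitter uptake and metabolism, 4 were higher, among them Slc6a11, Slc6a9 and Abat, and none was lower. Abat, which degrades GABA, stood at 366 and 369 CPM against 186 and 117 CPM. Of 11 transmitter receptors considered, Gria1 and Adora1 were higher, and Grm3 and Grin2c, a metabotropic and an NMDA glutamate receptor gene, were lower. Grm3 stood at 100 and 92.2 CPM against 240 and 312 CPM.

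Of 13 matricellular, synapse and proteoglycan genes, Sparc, Sparcl1 and Lgi1 were higher and Ptn and Hapln1 lower. Sparcl1, a synapse-promoting relative of Sparc, stood at 6697 and 6157 CPM against 2984 and 2761 CPM. Ptn (pleiotrophin) stood at 1311 and 1665 CPM against 4781 and 4792 CPM. Of 13 energy metabolism genes, Pygm (a glycogen phosphorylase, 118 and 149 CPM against 26.6 and 25.8 CPM) and Etnppl (219 and 210 CPM against 51.5 and 37.6 CPM) were higher and Ppp1r3g was lower. Of 20 lipid and sterol genes, Abca1 and Scd2 were higher and Cyp4f15 lower, with a median of -0.09. None of the 3 metallothioneins and none of the 4 FGF response genes considered passed 2-fold. Of 22 Sox and glial transcription factors, Nfix and Olig1 were higher.

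Only 3 of 17 Hedgehog and Wnt response genes reached 50 CPM. Of these, Ptch1, the Hedgehog receptor and a target of its own pathway, stood at 468 and 400 CPM against 104 and 80.6 CPM, Sfrp5 was higher, and Fzd2 was not past 2-fold. Of 16 fibrous and reactive astrocyte genes, 3 were considered. Gfap, the intermediate filament of fibrous astrocytes, stood at 196 and 154 CPM against 43.8 and 29.8 CPM, and Id3 and C4b were not past 2-fold. Of 9 immediate early genes, which rise during tissue dissociation, 1 (Jun) was considered, at 47.1 and 76.8 CPM against 82.5 and 126 CPM.

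**Figure D4:**
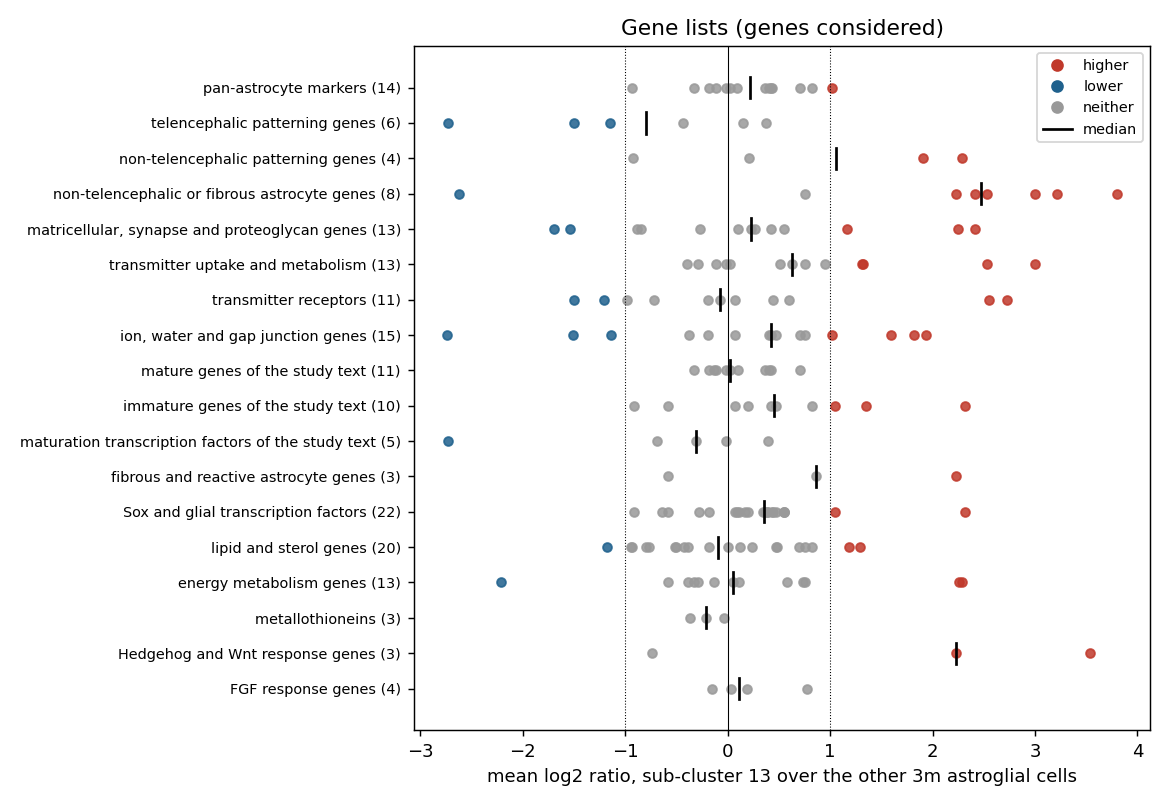
Mean log2 ratio of sub-cluster 13 over the other 3m astroglial cells for the considered genes of each list (number in brackets); points are genes, red and blue those at least 2-fold higher or lower, the black bar the list's median. Pan-astrocyte and mature genes lie around 0 (medians 0.22 and 0.02), and 6 of 8 astrocyte genes known to be higher outside the telencephalon or in fibrous astrocytes lie above 2.

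Sub-cluster 16, the neighbour on the map, shared some of these genes. Pooled over libraries, it stood at 265 CPM for Agt, 599 CPM for Slc6a11, 233 CPM for Itih3 and 44.2 CPM for Lhx2, against 1104, 1609, 581 and 31.2 CPM in sub-cluster 13. Its levels were nearer for Kcnj10 (382 against 413 CPM), Nkx6-2 (209 against 238) and Gria1 (149 against 212). The same held for Abat (475 against 372 CPM) and for the lower genes Ptn (1017 against 1358) and Atp1b1 (60.3 against 80.2). These genes do not mark sub-cluster 13 alone. Sub-cluster 16 was well below it for Igsf1 (20.1 against 117 CPM) and Lrig1 (36.2 against 186). Its cells were shallower, with median UMI numbers of 1658 and 1604 in replicates 2 and 3, held ribosomal shares of 19.5% and 28.8% against 3.91% and 3.49% in sub-cluster 13, and had the oligodendrocyte marker sums given above. With sub-clusters 7 and 14 alone as the comparison, 194 genes were higher and 153 lower, and 169 and 110 of these were among the 176 and 117.

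To ask whether any P3 sub-cluster had a similar profile, each P3 sub-cluster was set against the other P3 astroglial cells of the same library. Sub-cluster 11, with 307 cells, was the most alike, with a Pearson correlation of 0.40 between its mean log2 ratios and those of sub-cluster 13 over 2611 genes. The next was sub-cluster 1 with 0.28, and the others lay between -0.18 and 0.12. The genes compared were those considered above with at least 50 CPM in the P3 sub-cluster or in the other P3 cells. A high level in the P3 sub-cluster could thus admit a gene, and the gene sets differed. Of the higher genes of sub-cluster 13, 74 entered for P3 sub-cluster 2 and 98 for sub-cluster 11. The rank and the shares below are a description under this filter. Genes are not independent replicates and all sub-clusters came from one clustering, so no p-value is given. Of the 98 higher genes of sub-cluster 13 among these 2611, 40 (40.8%) were also at least 2-fold higher in sub-cluster 11, where 140 genes (5.36%) were higher in all, so that the 40 made up 28.6% of that list. Of 71 lower genes, 11 (15.5%) were lower in sub-cluster 11, where 113 (4.33%) were lower in all.

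The shared genes included Agt, Igsf1, Slc6a11 and Slc6a9. Agt stood at 1105, 884 and 798 CPM in sub-cluster 11 of P3 replicates 1 to 3 and at 34.8, 29.4 and 24.2 CPM in the other P3 astroglial cells. Lhx2 was lower there too, at 20.6, 24.1 and 20.9 CPM against 103, 121 and 158 CPM. Other genes did not follow. Itih3 stood at 28.5, 18.1 and 33.4 CPM in sub-cluster 11 against 21.5, 14.7 and 20.7 CPM, and Sfrp5 was lower, at 1.59, 4.02 and 1.39 CPM against 27.3, 25.8 and 26.2 CPM. Ptn, which was lower in sub-cluster 13, stood at 10077, 7517 and 7097 CPM in sub-cluster 11 against 11035, 6535 and 6831 CPM, and these values overlapped.

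Sub-cluster 13 held 1.98% of the astroglial UMIs of 3m replicate 1, 36.9% of replicate 2 and 13.3% of replicate 3. It gave 37.2%, 85.9% and 74.6% of the Agt UMIs of the 3m astroglial cells in replicates 1 to 3, and 22.5%, 76.9% and 47.2% of those of Slc6a11. The age comparison of all astroglial cells, 3m against P3, was therefore fitted with and without its cells, on UMIs summed per library with edgeR's quasi-likelihood test and Benjamini-Hochberg adjustment. Genes with an adjusted p up to 0.05 that differed by 2-fold or more were called. With all cells, 2140 of 13530 genes (15.8%) were higher and 2204 (16.3%) lower at 3m. Without sub-cluster 13, 2067 of 13546 (15.3%) were higher and 2218 (16.4%) lower. Both fits share the P3 libraries, and the difference between them was not tested.

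For 15 of the 176 higher genes, a call of higher at 3m was present with all cells and absent without sub-cluster 13, and 13 others were called lower at 3m only without it. Over all 13471 genes tested in both fits, 173 (1.28%) and 196 (1.45%) changed in these ways. In the fit with all cells, 68 of the 176 (38.6%) were called higher and 9 (5.11%) lower, against 15.6% and 16.4% of all 13471 genes. The 176 were chosen for their level in part of the 3m cells, so the counts are a description. Agt rose by 2.36 ± 0.43 on the log2 scale (SE, edgeR adjusted p = 5.0e-04) with all cells and was 0.59 ± 0.26 (edgeR adjusted p = 0.0706) without sub-cluster 13. Its size rested in part on 1 library: without 3m replicate 2 it was 1.37 (edgeR adjusted p = 8.2e-04) with all cells and 0.15 (edgeR adjusted p = 0.654) without sub-cluster 13. When sub-cluster 11 was left out at P3 as well, Agt was again called, at 1.54 (edgeR adjusted p = 3.1e-04). Adora1 rose by 1.37 ± 0.25 (edgeR adjusted p = 5.3e-04) and was 0.46 ± 0.26 (edgeR adjusted p = 0.171) without sub-cluster 13.

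Igsf1 turned sign. It was 1.06 ± 0.42 (edgeR adjusted p = 0.0529) with all cells and -1.91 ± 0.37 (edgeR adjusted p = 8.3e-04) without sub-cluster 13. With all cells its value rested on 1 library, since it was -0.26 (edgeR adjusted p = 0.516) without 3m replicate 2, and 1.37, 1.31 and 1.10 with a call when 3m replicate 1, 3m replicate 3 or P3 replicate 1 was left out. Lrig1, Kcnd2, Pipox and Sfrp5 were not called with all cells and were called lower at 3m without it, at log2 values of -1.50, -1.85, -1.79 and -1.10. With all cells but without 3m replicate 2, Lrig1 and Kcnd2 were also called lower, at -1.0 and -1.28, and the call for Sfrp5 without sub-cluster 13 was lost without 3m replicate 3 (-0.79). Itih3, Gria1, Car14 and B3galt2 were called higher at 3m in both fits.

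For the 117 lower genes the fits differed less, with 61 (52.1%) called higher at 3m with all cells and 66 without sub-cluster 13. Of all 13471 genes tested in both fits, 2102 (15.6%) and 2049 were called higher. The 117 were chosen for a lower level than in the other 3m cells, so these counts are a description too. Lhx2 was 0.86 ± 0.20 (edgeR adjusted p = 0.00306) with all cells, under the fold limit, and rose by 1.11 ± 0.18 (edgeR adjusted p = 2.1e-04) without sub-cluster 13; with all cells it was also called without P3 replicate 3, at 1.04. Sox9 was -0.28 ± 0.22 in both fits and passed in neither (edgeR adjusted p = 0.306 and 0.313). Sparc was 0.45 ± 0.47 (edgeR adjusted p = 0.454) with all cells and -0.48 ± 0.43 (edgeR adjusted p = 0.378) without, and passed the test in neither. Without 3m replicate 2 as well as sub-cluster 13, Sparc was called lower at 3m, at -1.55 (edgeR adjusted p = 5.0e-04).

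**Figure D5:**
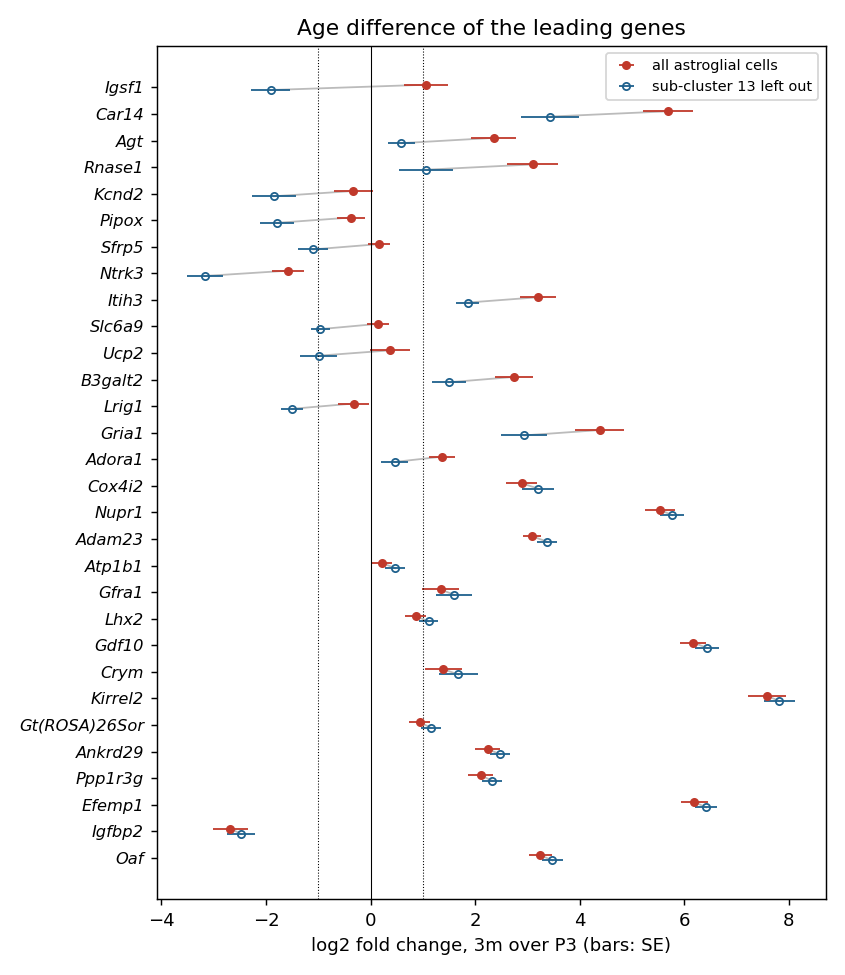
Log2 fold change of 3m over P3 (edgeR; bars are SE, 3 libraries per age) for the 30 leading genes, with all astroglial cells (red) and with sub-cluster 13 left out (blue). Values of the higher genes move left, Agt from 2.36 to 0.59 and Igsf1 from 1.06 to -1.91, while the lower genes move right by 0.20 to 0.31.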

How the data were processed

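Single-cell libraries (10x 3′ chemistry) of ACSA2-sorted mouse striatum, 3 at P3 and 3 at 3m, were analysed. Per the labels and the study's methods, the authors mapped reads to mm10 with Cell Ranger and deposited raw UMI counts per gene and barcode, with a cell table made in Seurat (version 3.1.1 in the submitters' processing notes). That deposited table holds cluster names, sub-cluster numbers, UMAP coordinates and a pseudotime score; the sub-clusters were made on SCTransform values. Its 14373 cells were those of 16690 barcodes with over 500 genes and under 10% mitochondrial UMIs, a limit that can leave out stressed or damaged cells. The annotation release behind the counts is not given in the sources used here; gene positions are from GENCODE (GRCm38).

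Counts were summed per library and group. Ratios were taken on log2(CPM + 1) within 3m libraries with at least 10 cells of sub-cluster 13, for genes of at least 50 CPM. Named genes were the 15 largest mean ratios each way, without predicted or unnamed genes, and genes of the lists, for which examples are given. The members, the lists and the markers were chosen with earlier results of these data known. Age was tested with edgeR 4.0.16 (TMM, filterByExpr, quasi-likelihood; the SE is the log2 fold change over the root of F), and alternatives used DESeq2 1.42.0 and Scrublet in scanpy 1.11.5. Both steps were tested on simulated data. Preparations are pools of animals, so p-values measure the spread between pools. Intervals for ratios and shares are exact and cover counting error only. The check of barcodes over the mitochondrial limit, and the fit that also leaves out sub-cluster 11, were chosen after seeing the data. A few genes of the lists are counted but not reported here by name.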

Additional observations from a re-analysis of the deposited data

Results flagged for a closer look

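Barcodes that the cell table leaves without a cluster carried RNA of the leading genes of sub-cluster 13. The summed level of the 15 leading higher genes in them was 1071 CPM in 3m replicate 1, 2609 CPM in replicate 2 and 1606 CPM in replicate 3, against 270, 367 and 218 CPM in the other astroglial cells of the same libraries and 516, 479 and 414 CPM in kept cells that are not astroglial. Of 852, 370 and 323 such barcodes, 836, 323 and 302 had at least 10% mitochondrial UMIs. Agt gave 27.3%, 29.1% and 23.8% of these UMIs, and 0.249%, 2.88% and 0.745% of those of the leading genes in kept cells that are not astroglial. The cause was not tested.

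The 3 cells of sub-cluster 13 in 3m replicate 1, which entered no ratio, had a summed level of 6529 CPM for the same genes, against 270 CPM in the other astroglial cells of that library. The clustering that named these 3 cells used their expression, so the value is a description.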

How the results depend on the processing

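The library of replicate 2 weighs most: it holds 168 of the 202 cells, and without it the mean share was 5.02% in place of 13.6%. Leaving out 1 replicate in turn gave shares of 5.02% to 19.7%, and 293 to 513 genes past 2-fold, 176 to 305 of them higher and 117 to 208 lower. The total without replicate 2, 513 genes, rests on the 31 cells of replicate 3. Cells thinned to 2000 UMIs gave 495 genes (274 higher, 221 lower) from fewer UMIs. The stricter cell filter, over 1000 genes and under 5% mitochondrial UMIs, left replicate 2 alone with 42 cells and gave 715 genes (411 higher, 304 lower). A minimum of 10 CPM in place of 50 gave 1100 genes (612 higher, 488 lower) among 8550 considered, and TMM scaling gave 177 lower genes. Other settings stayed within 1.5 times the count. None of the 171 named genes' ratios that were past 2-fold turned sign under any alternative. A 2-fold call requires the same sign in replicates 2 and 3, so leaving out a library could not turn one. Of the 2052 single-gene values under the alternatives, 415 moved by more than the SD of the 2 libraries. The values for replicate 2 alone, and without replicate 1, 2 or 3, could not move by this measure. Replicate 1 enters no ratio, and leaving out 1 of 2 libraries shifts a mean by less than their SD.

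The count of age calls was 4344 and lay between 3030 and 4932 over the alternatives. The stricter cell filter gave 1322 genes higher at 3m, against 2140. Leaving out each library gave 3234 to 4257 calls, with 1662 to 1971 higher and 1572 to 2291 lower. Leaving out sub-cluster 13 at 3m and sub-cluster 11 at P3 gave 4295. With library totals only as scaling, 1753 genes were higher and 2790 lower. The replicate block gave 4420 calls. Deviations from the age means correlated by 0.21, 0.10 and 0.04 between same-numbered libraries. The value for the libraries numbered 1 was the largest of all pairs, while 3m replicate 2 correlated best with P3 replicate 3, at 0.14. With 3 libraries per age, these values cannot decide whether the numbers pair preparations. Among 14 genes named for age, values with all cells changed sign for Igsf1 (-1.91 without sub-cluster 13, -1.61 without sub-clusters 13 and 11, -0.26 without 3m replicate 2), for Sfrp5 (-1.10 without sub-cluster 13, -1.14 without both sub-clusters, -0.03 with library totals, -0.99 with the stricter cell filter, -0.19 without 3m replicate 2), for Sparc (-0.48, -0.40 and -0.74 without sub-cluster 13, both sub-clusters and 3m replicate 2) and for Sox9 (0.03 without P3 replicate 3, and 0.04 without sub-cluster 13 as well). Adora1 also lost its call under the stricter cell filter (0.75) and without both sub-clusters (0.62). Over the libraries left out in turn, values with all cells ran from -0.26 to 1.37 for Igsf1, -0.19 to 0.25 for Sfrp5, -0.74 to 0.81 for Sparc and -0.41 to 0.03 for Sox9. The causes were not tested.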
